A study of Mus musculus with 8 samples.

Results

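Nuclear receptors are transcription factors that share a zinc-finger DNA-binding domain and, in most cases, a pocket for a small lipid-soluble ligand such as a steroid, thyroid hormone, a retinoid, a fatty acid or heme. The superfamily was followed here in the left ventricle of mice, and 46 receptor genes were taken as its members by symbol. Of these, 42 had at least 1 row in the deposited table, and they occupied 45 of 22206 rows, because Rora had 3 rows and Rorb had 2. No row of the table carried the symbol of Ppard, Nr1h2, Nr2e3 or Esrra, which are not analysed here.

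The tissue came from 4 male mice with cardiac-specific overexpression of microRNA-100 and from 4 male wild type mice, with 1 array for each animal. Both groups were 8 weeks of age, untreated and of the strain labelled C57/BL6J. The sources used here do not state which promoter drives the transgene or how many founder lines were used. Deposited values were log2 signals per transcript cluster, meaning a set of probes for 1 transcribed region, so a difference of 1 is a signal ratio of 2.

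Receptors act by recruiting coregulators to DNA. Coactivators such as Ppargc1a open chromatin around target genes, and corepressors built around Hdac3 close it when a receptor has no activating ligand. In heart muscle, PPAR and estrogen-related receptors are known for driving fatty acid and mitochondrial genes, thyroid hormone receptors for setting contractile and pacemaker genes, and glucocorticoid and mineralocorticoid receptors for hormone responses. The REV-ERB and ROR receptors bind the same DNA element and link the circadian clock to metabolism, with REV-ERB repressing and ROR activating.

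The overexpressed microRNA recognises transcripts mainly through its seed, and its mature sequence is shown with bases 2 to 8 in capitals (RefSeq, GRCm38.p6, chromosome 9, bases 41531437 to 41531458, plus strand).
mmu-miR-100-5p: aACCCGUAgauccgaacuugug

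The promoters of the REV-ERB pair and of Rora are shown because the receptor row that passed the test belongs to Rora and the next lowest p to Nr1d1. Each is the 250 bases before the gene's start in RefSeq (GRCm38.p6), on the gene's own strand. The windows were chr11:98775378-98775627 (minus strand) for Nr1d1, chr14:18239107-18239356 (minus strand) for Nr1d2 and chr9:68653536-68653785 (plus strand) for Rora. Capitals mark AGGTCA, the receptor half-site, in Nr1d2, and AACGTG, the reverse complement of the E-box variant CACGTT, in Nr1d1.
Nr1d1: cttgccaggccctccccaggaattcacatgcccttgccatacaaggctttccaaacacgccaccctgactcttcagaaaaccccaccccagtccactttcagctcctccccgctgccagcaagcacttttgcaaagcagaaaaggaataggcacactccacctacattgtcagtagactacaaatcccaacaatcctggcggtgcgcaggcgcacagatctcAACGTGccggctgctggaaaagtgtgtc
Nr1d2: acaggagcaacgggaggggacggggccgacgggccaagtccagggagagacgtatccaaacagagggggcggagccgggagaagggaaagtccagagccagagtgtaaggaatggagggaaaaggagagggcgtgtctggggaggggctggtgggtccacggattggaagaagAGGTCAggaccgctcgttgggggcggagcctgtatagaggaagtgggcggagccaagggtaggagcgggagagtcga
Rora: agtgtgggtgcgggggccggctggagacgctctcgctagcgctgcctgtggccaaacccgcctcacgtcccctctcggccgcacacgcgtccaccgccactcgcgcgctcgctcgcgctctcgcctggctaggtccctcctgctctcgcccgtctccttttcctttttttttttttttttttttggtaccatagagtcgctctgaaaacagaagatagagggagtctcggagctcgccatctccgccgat

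Motifs were searched by their letters on both strands of these windows. AGGTCA lay in 11 of the 63 promoters that RefSeq listed for 42 of the 46 members, or 17.5%, and in 14% of all 32851 promoters. The E-box CACGTG, bound by the clock activators, lay in 7.94% of the members' promoters and in 6.02% of all. TAGGTCA, the half-site with a leading T, lay in 0 of the members' promoters and in 2.23% of all, and the D-box TTANGTAA in 1.59% and 2.06%. CACGTT, added after the Nr1d1 window had been read, lay in 4.76% and 3.85%. The Rora window held none of these letters, and RefSeq gave 1 promoter for Rora, so it is not known to which of the 3 rows it belongs.

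As a check of the tissue, 9 of 9 cardiomyocyte markers were bright, with a mean log2 signal over the list of 18.56 to 18.67 on the miR-100 arrays and 18.46 to 18.58 on the wild type arrays. Lymphocyte markers were dim in every mouse, and 7 of 7 lay at or under the level of olfactory receptor rows. That level, a log2 signal of 5.05, is the 95th percentile of the means of 1091 olfactory receptor rows, which stand for genes hardly used in ventricle. It marks dim rows and is no detection limit, since probes differ in brightness. Of the 45 receptor rows, 29 lay above it and 16 at or under it. The dim ones were both rows of Rorb, Nr1h4, Nr1i2, Nr1i3, Hnf4a, Hnf4g, Nr2e1, Nr2f1, Nr2f6, Esr1, Esr2, Pgr, Nr5a1, Nr5a2 and Nr0b1. Fibroblast markers averaged 11.07 to 11.40 on the miR-100 arrays and 11.21 to 11.44 on the wild type arrays, and endothelial markers 11.24 to 11.46 and 11.29 to 11.41. In the 10 marker lists, with 2 to 9 measured genes each, 0 genes passed (limma). Nppa, Acta2, Kcnj8, Adipoq and Upk3b, 5 in all, had an unadjusted p under 0.05, against 7.73% of all rows. By list, 1 of 9 cardiomyocyte genes and 1 of 6 adipocyte genes were higher, and 1 of 5 epicardial genes was lower. Of 8 smooth muscle and pericyte genes 1 was higher and 1 lower, and the other marker lists had no such gene. Arrays correlated between 0.988 and 0.993 over all rows, and replicate 2 of each group lay at an end of the first principal component. That component kept the genotypes apart, from -38.2 to -3.49 on the wild type arrays and from 8.96 to 30.8 on the miR-100 arrays.

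A row of Rora fell in the miR-100 hearts, and the other receptor rows did not pass. That is 1 of 45 receptor rows at an adjusted p of 0.05 over the whole table (Benjamini-Hochberg, from limma), against 0.14% of all rows, of which 0.0946% were higher and 0.045% lower. At an unadjusted p of 0.05, 5 receptor rows (11.1%) were counted, against 7.73% of all rows. One was higher, Nr1d1, against 3.55% of all rows, and 4 were lower, Rora, Ppara, Vdr and Pgr, against 4.17% of all rows. All but Pgr belong to the NR1 class, which holds 19 of the 45 rows. Both genotypes had separate ranges in 4 receptor rows, or 8.89%, against 4.54% of all rows. Nr1d1 was the 1 such row higher in miR-100 hearts (2.21% of all rows), and Rora, Vdr and Pgr were lower (2.33% of all rows). In whole ventricle, fewer cells of a type and less RNA per cell cannot be told apart.

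Over the 45 rows the median difference, miR-100 overexpressing minus wild type, was -0.0075 on the log2 scale, against -0.015 over all rows. Differences were above 0 in 22 rows and below 0 in 23. They ran from -1.26 to 0.80. In 42 rows (93.3%) the 95% confidence interval lay within 1 of 0, against 97.0% of all rows. In 22 rows it lay within 0.5 of 0.

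**Figure D1:**
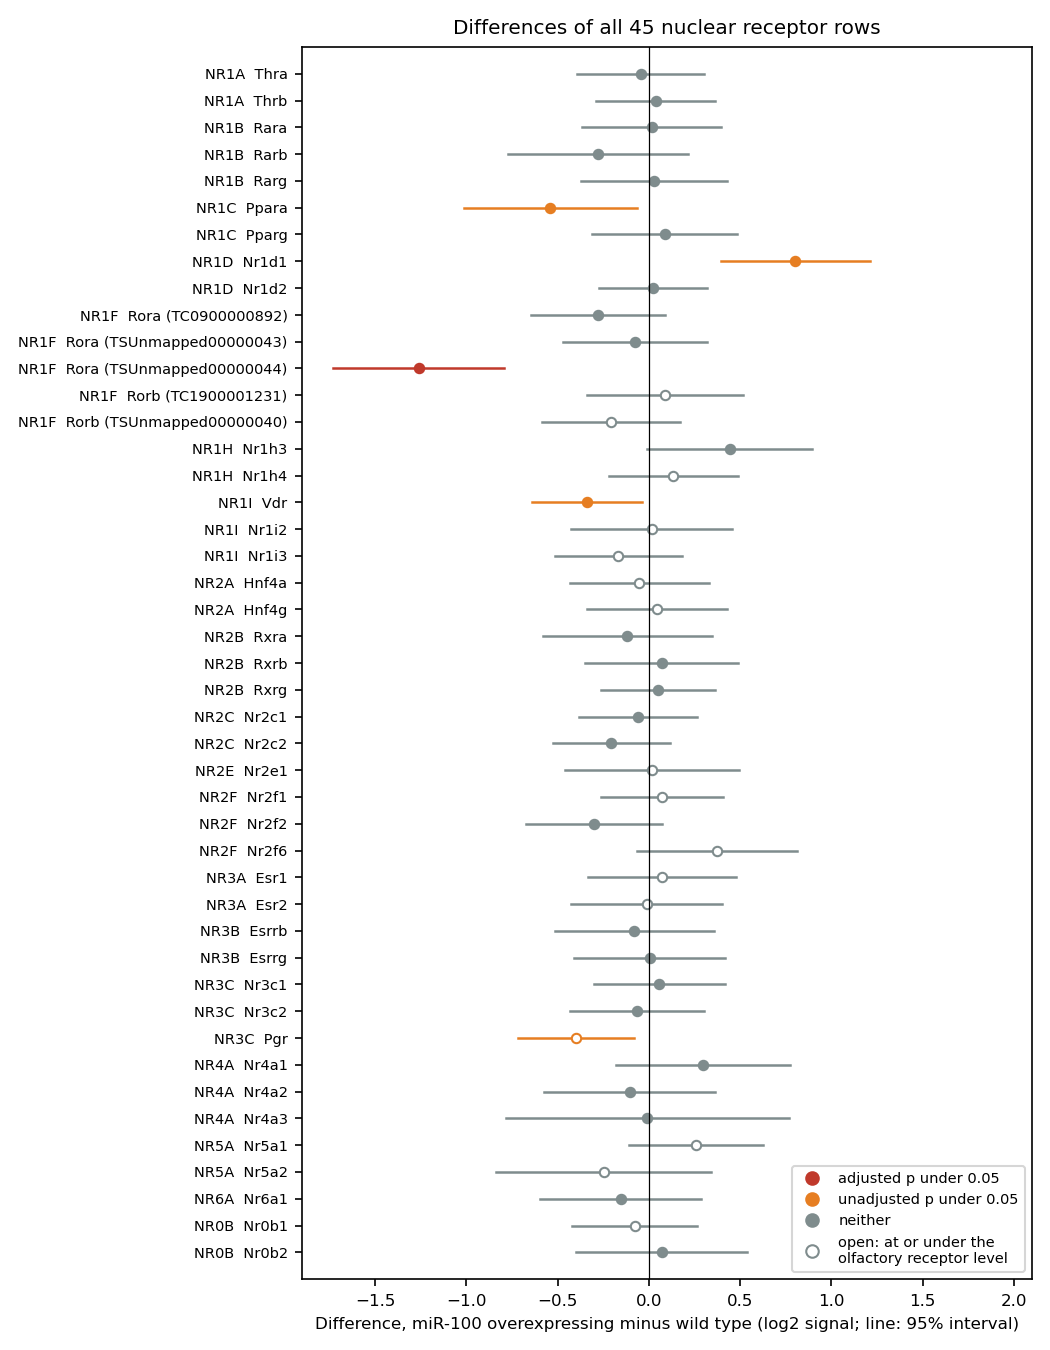
Difference between miR-100 overexpressing and wild type ventricles (log2 signal, horizontal axis) for the 45 nuclear receptor rows, ordered by receptor group from top to bottom. Lines are 95% confidence intervals from limma, open circles are rows at or under the olfactory receptor level, and the row of Rora at -1.26 is the 1 in red.

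**Figure D2:**
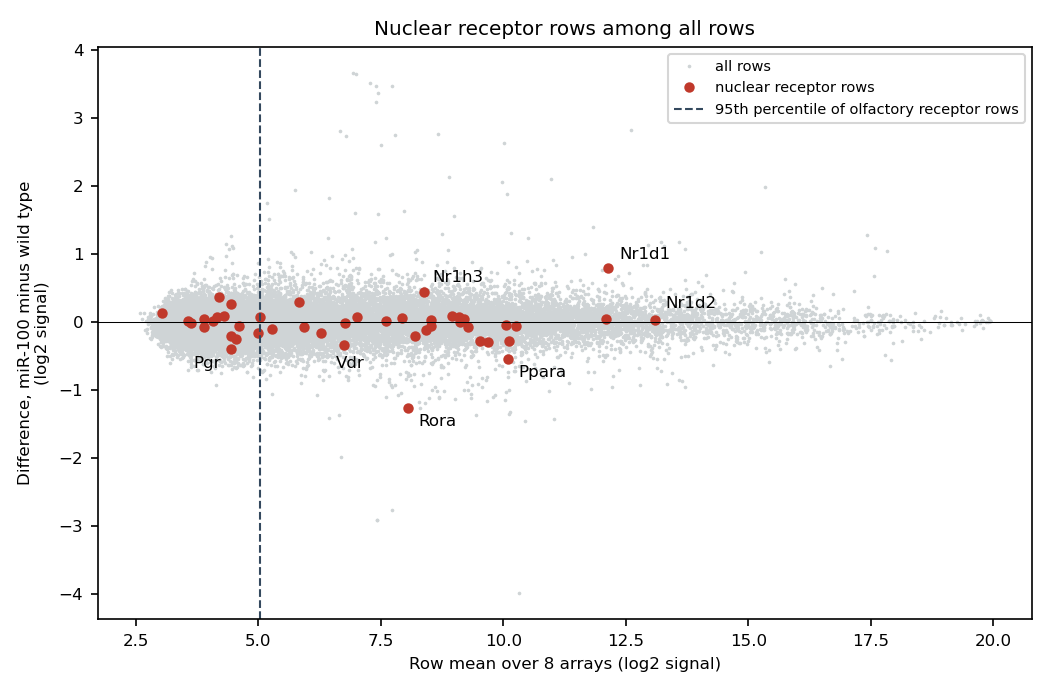
Mean log2 signal of each row over the 8 arrays (horizontal axis) against its difference, miR-100 overexpressing minus wild type (vertical axis, log2 signal), for all 22206 rows in grey and the 45 receptor rows in red. Most receptor rows sit inside the grey band, with a Rora row at -1.26 and Nr1d1 at 0.80 outside most of it, and the dashed line marks the olfactory receptor level of 5.05.

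Among the retinoid-related orphan receptors (NR1F), Rora encodes an activator that binds DNA as a single molecule and feeds into the clock. Its row TSUnmapped00000044.mm.2, annotated to transcript NM_001289917, had 7.11, 7.84, 7.61 and 7.15 (log2 signal) in the miR-100 hearts, against 8.56, 9.08, 8.23 and 8.89 in the wild type hearts. All 4 miR-100 values lay below all 4 wild type values. The means were 7.43 ± 0.36 and 8.69 ± 0.37 (SD, n = 4 each), a difference of -1.26 (SE 0.22, 95% interval -1.73 to -0.80, limma adjusted p = 0.0421), which is a signal ratio of 0.417.

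The other rows of Rora did not pass. Row TC0900000892.mm.2, annotated to NM_013646, had 9.08, 9.71, 9.26 and 9.52 in the miR-100 hearts, against 9.64, 9.95, 9.57 and 9.53 in the wild type hearts, and its difference was -0.28 (SE 0.17, limma adjusted p = 0.756). Row TSUnmapped00000043.mm.2, annotated to NM_001289916, had 9.16, 9.26, 9.20 and 9.35 in the miR-100 hearts, against 9.49, 9.75, 8.88 and 9.15 in the wild type hearts, a difference of -0.075 (SE 0.18, limma adjusted p = 0.961). In both rows the groups overlapped, and in the second the miR-100 values lay inside the wild type range. The signal of the row that fell, minus that of TC0900000892.mm.2 on the same array, ran from -2.37 to -1.65 in the miR-100 hearts and from -1.34 to -0.64 in the wild type hearts. Set against TSUnmapped00000043.mm.2, it ran from -2.20 to -1.42 in the miR-100 hearts and from -0.93 to -0.26 in the wild type hearts. Neither gap overlapped between the groups. These gaps follow a difference already known and have no test, and the sources used here do not state which exons the probes of each row cover. The transcript named for each row is the first in its annotation, so the names need not mark separate transcripts. The row that fell and TSUnmapped00000043.mm.2 are labelled as unmapped in their identifiers, unlike TC0900000892.mm.2. Their place in the genome was not checked here.

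The call for this row was close to the threshold. It held without miR-100 overexpressing replicate 2 (limma adjusted p = 0.0343) and without wild type replicate 3 (0.0470), and was lost without each of the other 6 arrays, where the highest was 0.154. Without wild type replicate 2 the difference was -1.13 (0.140). Across these fits the difference ran from -1.42 to -1.13. Rorb, a relative found mostly in brain and retina, was dim in both of its rows, with differences of 0.087 and -0.21 that did not pass.

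**Figure D3:**
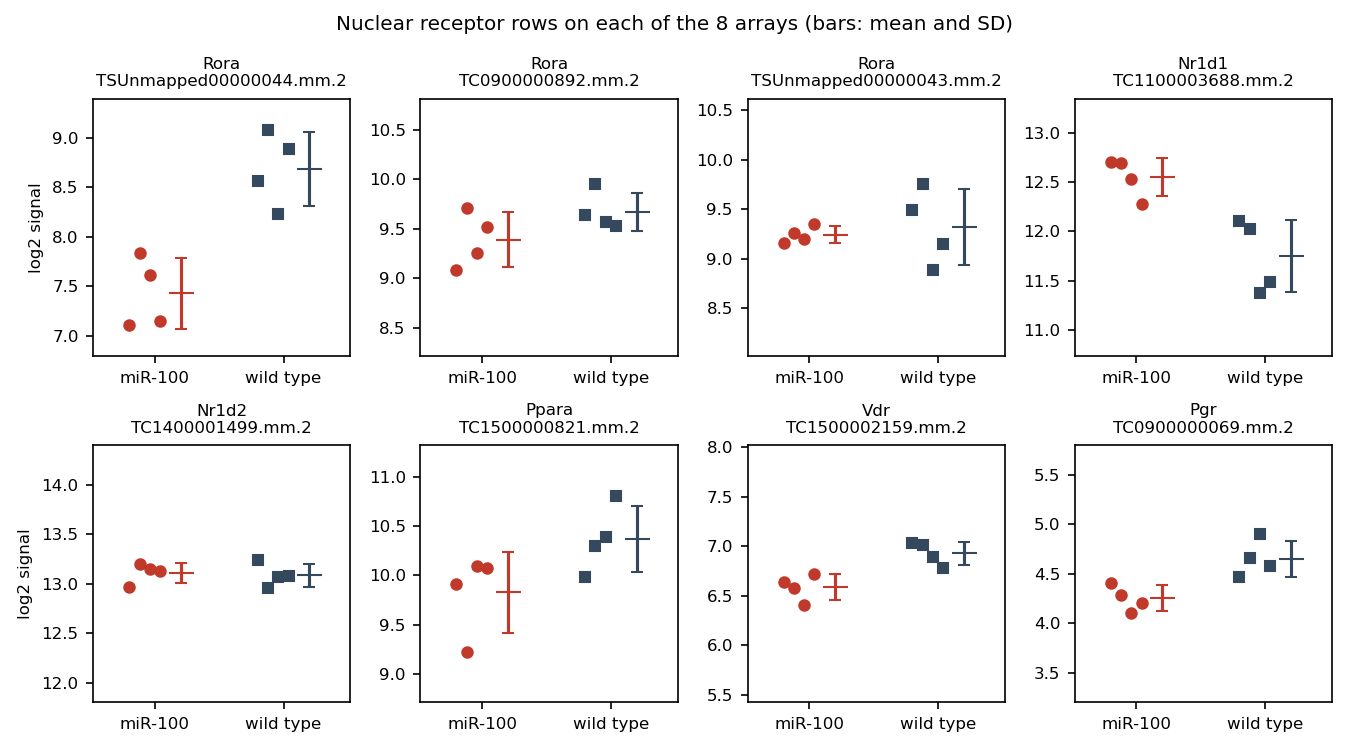
Log2 signal on each of the 8 arrays (vertical axis, the same span in every panel) for the 3 rows of Rora and for Nr1d1, Nr1d2, Ppara, Vdr and Pgr, with miR-100 overexpressing hearts as red circles and wild type hearts as dark squares. Bars give the mean and SD of 4 arrays, and the groups are apart in the Rora row TSUnmapped00000044.mm.2, Nr1d1, Vdr and Pgr.

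The REV-ERB receptors (NR1D) bind heme and repress Arntl and other genes that carry the ROR element. Nr1d1 had 12.70, 12.69, 12.53 and 12.28 in the miR-100 hearts, against 12.10, 12.02, 11.38 and 11.49 in the wild type hearts. The groups did not overlap, with wild type replicates 3 and 4 lowest. The means were 12.55 ± 0.20 and 11.75 ± 0.37 (SD, n = 4 each), and the difference of 0.80 (SE 0.19, 95% interval 0.39 to 1.21) had an unadjusted p of 0.000946 and did not pass over all rows (limma adjusted p = 0.181).

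Nr1d2 was the receptor row with the smallest spread between mice, with a within-group SD of 0.11. It had 12.97, 13.20, 13.15 and 13.13 in the miR-100 hearts, against 13.24, 12.96, 13.07 and 13.08 in the wild type hearts, and the difference was 0.025 (95% interval -0.27 to 0.32, limma adjusted p = 0.984). Taken on the same array, Nr1d1 minus Nr1d2 averaged -0.56 in the miR-100 hearts and -1.34 in the wild type hearts. This gap ranged from -0.85 to -0.27 in the miR-100 hearts and from -1.69 to -0.94 in the wild type hearts. In the 29 pairs of receptors of the same group, the brightest row stood for each symbol. The Rora row that fell was therefore in none of them. Among these pairs, Nr1d1 minus Nr1d2 was the 1 gap without overlap. Its two-sided exact permutation p was 0.0286, the smallest that 70 assignments allow, and 0.663 after adjustment over the 29 pairs. With this number of mice no single pair could pass that adjustment.

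Of 15 measured genes of the clock loop, many of which REV-ERB and ROR control, 0 passed (limma), while 3 were higher and 8 lower at an unadjusted p of 0.05, against 3.55% and 4.17% of all rows, and the median difference was -0.43. This list too was drawn up with earlier results known, and its counts are a description. Arntl, the clock activator that REV-ERB represses, had 6.37, 6.06, 5.88 and 6.42 in the miR-100 hearts, against 5.87, 5.17, 4.92 and 4.67 in the wild type hearts (difference 1.02, limma adjusted p = 0.175). All 4 miR-100 values lay above all 4 wild type values. The lowest p was that of the repressor gene Per3, at -0.81 (limma adjusted p = 0.0548), and Per2 and Ciart, a further repressor, had -0.89 and -0.81. Without wild type replicate 1, 2 genes of the loop passed, and with an intensity trend in the moderation 2 did. The sources used here do not state the hour of collection, and its part in these values was not tested. Alas1, the first enzyme of heme synthesis and so of the REV-ERB ligand, differed by 0.63 with no overlap between groups (limma adjusted p = 0.302).

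Thyroid hormone receptors (NR1A) did not pass. Thra, the main form in heart, had 10.25, 10.17, 9.69 and 10.02 in the miR-100 hearts, against 10.15, 10.17, 9.85 and 10.14 in the wild type hearts, a difference of -0.045 (95% interval -0.39 to 0.30). Thrb differed by 0.038 (95% interval -0.29 to 0.36). Thra and Nr1d1 overlap at their ends on opposite strands, and the sources used here do not state which Thra transcripts the row covers. Of 13 measured genes known to answer to thyroid hormone, 1 passed, the pacemaker channel gene Hcn2, which rose by 1.24 (limma adjusted p = 0.0198). Over all rows, 0.0946% passed and were higher. The list was drawn up with earlier results of these data known, so its count is a description. The median of the list was -0.098, against -0.015 over all rows. Below 0 were 10 members, against 53.0% of all rows. Myh6, the fast myosin that thyroid hormone raises, differed by -0.042, and Myh7, which it lowers, by -0.38 (limma adjusted p = 0.797). Hcn2 passed in 3 of the 8 fits without an array and had an adjusted p of 0.0643 in the fit with a replicate block.

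Retinoic acid receptors (NR1B) and their retinoid X partners (NR2B) did not pass. Rarb, itself a gene that retinoic acid induces, had 9.59, 9.91, 9.77 and 10.64 in the miR-100 hearts, against 10.05, 10.38, 9.95 and 10.65 in the wild type hearts, a difference of -0.28 (95% interval -0.77 to 0.21). Replicate 4 was the brightest in both groups. Rara and Rarg differed by 0.015 and 0.027. Rxra, the obligate partner of many NR1 receptors, had 8.81, 8.24, 8.53 and 7.88 in the miR-100 hearts, against 8.10, 8.89, 8.45 and 8.49 in the wild type hearts, a difference of -0.12 (95% interval -0.58 to 0.35). Rxrg, a retinoid X receptor of striated muscle, varied little between mice, at 12.12 ± 0.12 in the miR-100 hearts and 12.07 ± 0.16 in the wild type hearts (SD, n = 4 each). Of 7 measured retinoic acid targets 0 passed (limma), and 0 had an unadjusted p under 0.05. The lowest p was that of Dhrs3, a retinaldehyde reductase, at -0.38 (limma adjusted p = 0.667), and at -0.23 without wild type replicate 2.

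Of the PPAR group (NR1C), Ppara drives fatty acid oxidation in heart muscle. It had 9.91, 9.23, 10.10 and 10.07 in the miR-100 hearts, against 9.98, 10.30, 10.39 and 10.80 in the wild type hearts. Replicate 2 of the miR-100 group was the lowest and wild type replicate 4 the highest, and the groups overlapped at wild type replicate 1. The difference was -0.54 (SE 0.22, 95% interval -1.01 to -0.066), with an unadjusted p of 0.0285 and a limma adjusted p of 0.568. Without miR-100 overexpressing replicate 2 it was -0.34 (limma unadjusted p = 0.108). It was -0.40 without wild type replicate 4 (limma unadjusted p = 0.0969) and -0.53 without wild type replicate 3 (0.0526). Pparg, the adipocyte regulator, had 9.01 ± 0.34 in the miR-100 hearts and 8.92 ± 0.20 in the wild type hearts (SD, n = 4 each). The adipocyte markers, 5 of 6 of which lay at or under the olfactory receptor level, averaged 6.16 to 6.51 on the miR-100 arrays and 6.15 to 6.37 on the wild type arrays.

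Of 19 measured genes that PPARs control, 0 passed (limma). Differences were below 0 in 14, against 53.0% of all rows, and above 0 in 5. At an unadjusted p of 0.05, 1 was higher and 2 lower, against 3.55% and 4.17% of all rows. The median was -0.088, against -0.015 over all rows. Acot1, a thioesterase of the cytosol, had 8.39, 9.0, 8.13 and 7.61 in the miR-100 hearts, against 9.56, 8.92, 9.42 and 9.31 in the wild type hearts (difference -1.02, limma adjusted p = 0.203). Angptl4, an inhibitor of lipoprotein lipase, differed the other way, by 1.0 (limma adjusted p = 0.428). Slc25a20, the carnitine carrier of the inner mitochondrial membrane, differed by -0.34. Targets of the estrogen-related receptors, mostly mitochondrial enzymes, had a median of 0.019 over 14 genes, with 0 past the threshold (limma). Among them Ckmt2, the mitochondrial creatine kinase of muscle, had the lowest p, with a difference of 0.32 (unadjusted p = 0.0469, limma adjusted p = 0.638).

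In the sterol and bile acid group (NR1H), Nr1h3, the liver X receptor alpha that senses oxysterols, had 8.91, 8.50, 8.56 and 8.43 in the miR-100 hearts, against 7.56, 8.40, 8.11 and 8.56 in the wild type hearts. The difference was 0.44 (95% interval -0.0076 to 0.89, unadjusted p = 0.0534, limma adjusted p = 0.662). Wild type replicate 1 was the lowest, wild type replicate 4 lay inside the miR-100 range, and without replicate 1 the difference was 0.24. Of 9 measured LXR targets 0 passed (limma), 6 lay above 0, and the median was 0.31, against -0.015 over all rows. Apoe, which carries cholesterol out of macrophages, differed by 0.58, and Fasn, fatty acid synthase, by 0.45 (unadjusted p = 0.0131 and 0.0157, limma adjusted p = 0.436 and 0.469). Macrophages use Nr1h3 as well. Over 7 macrophage markers the mean log2 signal ran from 8.68 to 9.07 on the miR-100 arrays and from 8.57 to 8.98 on the wild type arrays, and their part in the result was not tested. Nr1h4, the bile acid receptor of liver and gut, was dim.

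The vitamin D receptor gene Vdr (NR1I) had 6.64, 6.58, 6.41 and 6.72 in the miR-100 hearts, against 7.03, 7.01, 6.89 and 6.78 in the wild type hearts. The groups did not overlap, and miR-100 replicate 4 lay just under wild type replicate 4. The difference of -0.34 (95% interval -0.64 to -0.038, unadjusted p = 0.0304) did not pass over all rows (limma adjusted p = 0.574). Without miR-100 overexpressing replicate 2 or 3 or wild type replicate 1 or 2 the unadjusted p was between 0.0547 and 0.0885. Its relatives Nr1i2 and Nr1i3, xenobiotic sensors of the liver, were dim and differed by 0.015 and -0.17.

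In the NR2 class outside the retinoid X receptors, 0 rows passed and 0 had an unadjusted p under 0.05. The COUP-TF gene Nr2f2, which shapes atrial and venous identity, had 9.30, 9.49, 9.92 and 9.43 in the miR-100 hearts, against 10.05, 9.84, 9.54 and 9.91 in the wild type hearts, a difference of -0.30 (95% interval -0.67 to 0.072). Replicate 3 was the highest of the miR-100 hearts and the lowest of the wild type hearts. Nr2f6, a dim member of the same group, had 4.82, 4.36, 3.94 and 4.47 in the miR-100 hearts, against 4.20, 4.34, 3.72 and 3.84 in the wild type hearts. It differed by 0.37 (95% interval -0.065 to 0.81) and Nr2f1 by 0.072. The repressor gene Nr2c2 had 8.30, 8.19, 7.85 and 8.02 in the miR-100 hearts, against 8.22, 8.38, 8.16 and 8.42 in the wild type hearts, a difference of -0.21, and Nr2c1 differed by -0.060. Hnf4a and Hnf4g, regulators of liver and gut, and Nr2e1, a receptor of neural stem cells, were dim, with differences of -0.052, 0.045 and 0.018.

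Among steroid receptors (NR3C), the glucocorticoid receptor gene Nr3c1 had 7.71, 8.11, 7.93 and 8.07 in the miR-100 hearts, against 7.77, 7.99, 7.61 and 8.22 in the wild type hearts, a difference of 0.058 (95% interval -0.30 to 0.42). Nr3c2, the mineralocorticoid receptor gene, differed by -0.065 (95% interval -0.43 to 0.30). Pgr, the progesterone receptor gene, had 4.41, 4.29, 4.10 and 4.21 in the miR-100 hearts, against 4.47, 4.66, 4.90 and 4.58 in the wild type hearts. The groups did not overlap, but every value lay under the olfactory receptor level of 5.05. The difference was -0.40 (unadjusted p = 0.0179, limma adjusted p = 0.489). The limma unadjusted p was 0.0526 without miR-100 overexpressing replicate 3 and 0.0598 without wild type replicate 3.

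Of 18 genes that glucocorticoids are known to control, 3 passed (limma), 2 higher and 1 lower, against 0.0946% and 0.045% of all rows. The genes were listed with earlier results of these data known, so the count is a description and not independent evidence about the hormone's targets. Lcn2, a siderophore-binding protein, rose by 2.76 (limma adjusted p = 0.0431), and Ptgds, a prostaglandin D synthase, rose by 1.99 (0.0392). Lcn2 passed in 6 of 9 other settings and was lost with robust moderation (0.170), array weights (0.0512) and quantile normalization (0.0534). Nfkbia, the inhibitor of NF-kappaB, fell by 1.15 (0.0252). The list median was -0.41, against -0.015 over all rows, and 15 members were below 0, against 53.0% of all rows. Cdkn1a, a cell cycle inhibitor, differed by 2.06 with overlap between the groups, and Tsc22d3, a widely used marker of the hormone's action, by -0.73 (limma adjusted p = 0.234 and 0.432). Per1 belongs both here and to the clock loop, at -0.78 (0.176). With 1 array left out, the list had 2 genes past the threshold without miR-100 overexpressing replicate 2 or without wild type replicate 4. It had 1 without wild type replicate 1, and 0 without any other array.

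The estrogen receptor genes Esr1 and Esr2 (NR3A) were dim, with differences of 0.072 and -0.013. Of the estrogen-related receptors (NR3B), Esrrg, which is used in oxidative muscle, had 8.56, 9.13, 9.27 and 9.49 in the miR-100 hearts, against 9.11, 9.13, 9.28 and 8.91 in the wild type hearts, and its difference of 0.005 (95% interval -0.41 to 0.42) was the smallest of all 45. Esrrb had 6.20, 5.77, 6.01 and 5.60 in the miR-100 hearts, against 5.95, 6.04, 5.49 and 6.42 in the wild type hearts, a difference of -0.080.

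The NR4A genes are induced within minutes of hormonal or mechanical stimuli and need no ligand. Nr4a3 had the widest spread within groups of all 45 receptor rows. It had 6.11, 8.16, 6.55 and 6.27 in the miR-100 hearts, against 6.93, 6.97, 6.91 and 6.31 in the wild type hearts. Its within-group SD of 0.70 was higher than that of 99.5% of all rows, and miR-100 overexpressing replicate 2 stood far above the other mice of its group. Its difference was -0.0075 (95% interval -0.78 to 0.77), and -0.47 without that mouse (limma adjusted p = 0.693). Nr4a1 had 5.86, 5.91, 5.60 and 6.54 in the miR-100 hearts, against 5.34, 5.43, 6.10 and 5.85 in the wild type hearts, a difference of 0.30 (95% interval -0.18 to 0.78), and Nr4a2 differed by -0.11. The mouse with the most Nr4a3 was not the one with the most Nr4a1.

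Of the remaining receptors, Nr0b2, which lacks a DNA-binding domain and represses other receptors, had 9.61, 8.96, 9.41 and 8.53 in the miR-100 hearts, against 8.82, 9.0, 9.15 and 9.26 in the wild type hearts. The miR-100 values spread more widely than the wild type values (SD 0.48 and 0.19), around a difference of 0.070. Its relative Nr0b1 was dim, with 3.85, 3.69, 4.10 and 3.78 in the miR-100 hearts, against 3.77, 3.80, 4.25 and 3.91 in the wild type hearts, a difference of -0.078. Nr6a1, the germ cell nuclear factor, had 6.25, 6.0, 6.50 and 6.09 in the miR-100 hearts, against 6.96, 6.20, 5.98 and 6.32 in the wild type hearts, a difference of -0.16. Nr5a1 and Nr5a2, regulators of steroid synthesis, were dim, with differences of 0.26 and -0.25.

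**Figure D4:**
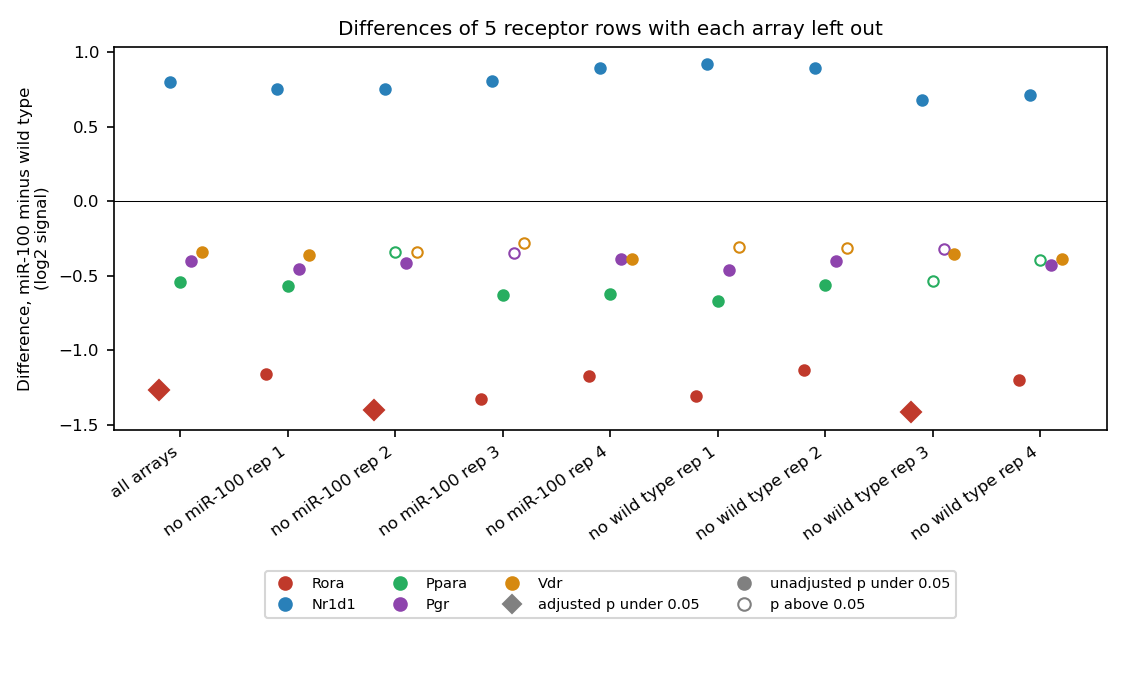
Difference in log2 signal, miR-100 overexpressing minus wild type (vertical axis), of the 5 receptor rows with an unadjusted p under 0.05, with all arrays and with each array left out in turn (horizontal axis). Diamonds pass an adjusted p of 0.05, and they occur for Rora alone, in 2 of the 8 fits without an array, while Nr1d1 stays between 0.68 and 0.92.

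Of 15 coactivator genes 0 passed (limma), and the median was 0.022. Ncoa7, at 0.33, was the 1 higher at an unadjusted p of 0.05, against 3.55% of all rows. Ppargc1a, the coactivator of PPAR and estrogen-related receptors, differed by 0.055. Of 8 measured corepressor genes 0 passed (limma). Against 3.55% and 4.17% of all rows, 1 gene was higher and 1 lower at an unadjusted p of 0.05. These were the related genes Tbl1x and Tbl1xr1, whose proteins exchange corepressors for coactivators. Tbl1x had 11.51, 11.60, 11.60 and 11.54 in the miR-100 hearts, against 11.17, 11.10, 10.80 and 11.04 in the wild type hearts, with no overlap (difference 0.54, unadjusted p = 0.00198, limma adjusted p = 0.239). Tbl1xr1 differed by -0.35 (limma adjusted p = 0.620). Of 8 chaperones of steroid receptors 0 passed (limma), and Hsp90aa1, which holds these receptors ready for ligand, had 13.27, 13.29, 13.39 and 13.09 in the miR-100 hearts, against 12.55, 11.75, 12.53 and 12.88 in the wild type hearts (difference 0.83, limma adjusted p = 0.222).

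Of 31 measured genes that make, break down or bind receptor ligands, 0 passed (limma), and the median was -0.083. Against 3.55% and 4.17% of all rows, 3 genes were higher and 2 lower at an unadjusted p of 0.05. Besides Alas1, these were Aldh1a1, which makes retinoic acid, at -0.55 (unadjusted p = 0.0100), Fabp5, a fatty acid carrier, at 0.34, and the dim genes Hsd11b2 and Cyp27b1 at -0.39 and 0.39. Aldh1a1 had 8.79, 8.77, 8.83 and 8.66 in the miR-100 hearts, against 9.36, 8.76, 9.60 and 9.53 in the wild type hearts. The miR-100 mice were alike, and wild type replicate 2 sat with them. Hsd11b1, which regenerates active glucocorticoid inside cells, differed by 0.14.

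**Figure D5:**
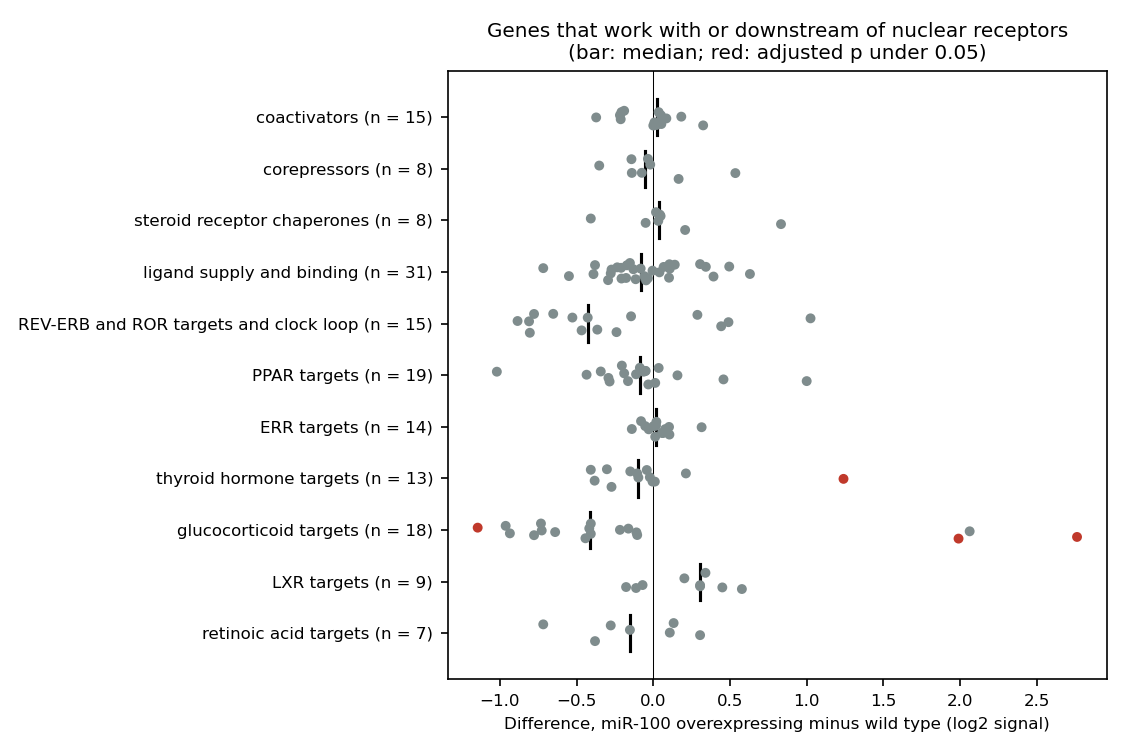
Difference in log2 signal, miR-100 overexpressing minus wild type (horizontal axis), for each measured gene of 11 lists of coregulators, chaperones, ligand enzymes and receptor targets, with the list median as a bar. The 4 red points, Hcn2 in the thyroid hormone list and Nfkbia, Ptgds and Lcn2 in the glucocorticoid list, pass an adjusted p of 0.05, and the clock and glucocorticoid lists have the lowest medians, at -0.43 and -0.41.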

How the data were processed

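RNA of 8 ventricles, 1 array each, was measured. What the authors deposited is a log2 signal for each transcript cluster, and Transcriptome Analysis Console 4.0 is named in the submitters' processing notes. For summarization, normalization and genome build, details are not given in the sources used here. Values ran from 2.29 to 19.93 with column medians of 5.70 to 5.74. Symbols came from the platform annotation supplied with the series, and promoters and the microRNA from RefSeq tables of GRCm38.p6.

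The limma package (version 3.58.1, R 4.3.3) fitted all 22206 rows with empirical Bayes moderation (no covariates, no filter) and Benjamini-Hochberg adjustment over all rows at a threshold of 0.05. The fit was tested on simulated data. Each difference is given as overexpressing minus wild type. Nothing in the labels ties mice to litters, and p-values measure the spread between these 8 samples. Members, lists and tests were chosen with earlier results of these data known. In the lists and in the pairs, the brightest row stood for a symbol. Shown array by array are the rows of Rora, Nr1d1, Nr1d2, rows with an unadjusted p under 0.05 or no overlap, the lowest p of each brighter group, and Ppara, Rxra, Nr3c1 and Thra. The array values of Nr2f2, Esrrg, Nr4a3 and Nr0b2 are shown outside this rule, after they were seen. From each list the genes past the threshold and up to 4 of lowest p were eligible, and the further ones, such as Myh6, Myh7, Ppargc1a, Hsd11b1, Cyp27b1, Cdkn1a and Tsc22d3, were named after their values were seen. Array weights, trend and robust moderation, quantile and median scaling, filters, a replicate block and leaving out each array were tried. Scanner files and slides were not used here, so background correction and slide could not be varied, and precision is bounded by having 4 arrays per genotype.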

Additional observations from a re-analysis of the deposited data

Results flagged for a closer look

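Among 90 groups of 4 values, one for each receptor row and genotype, 6 held a mouse far from the other 3, where chance would give about 4.5. The mice concerned differ from gene to gene. In the miR-100 hearts, Rorb (row TC1900001231.mm.2) was 3.90 in replicate 1 against 4.49 to 4.54 in the others, and Nr3c2 was 9.88 in replicate 4 against 10.29 to 10.37. In the wild type hearts, Thra was 9.85 in replicate 3 against 10.14 to 10.17, Pparg was 9.21 in replicate 4 against 8.80 to 8.87, Nr4a3 was 6.31 in replicate 4 against 6.91 to 6.97, and Nr5a2 was 5.67 in replicate 1 against 4.24 to 4.48 (all log2 signal). None of these rows passed with all arrays.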

How the results depend on the processing

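The number of mice limits these values, and no background measurement was used here for the 16 dim rows. The Rora row that passed had a limma adjusted p between 0.0174 and 0.0484 under 7 of 9 settings, 0.0512 with array weights and 0.0548 with a replicate block, so 0 receptor rows passed under those 2. Same-numbered mice did not deviate together (correlations -0.060 to 0.066), and the replicate block also left 0 thyroid hormone targets and 21 of all rows past the threshold. At an unadjusted p of 0.05, 2 receptor rows were higher with array weights and 2 with an intensity trend. With the trend, 65 of all rows and 2 clock genes passed. With rows above the 25th percentile, above the 50th percentile or with a symbol, 1 clock gene passed each time. With 1 array left out, between 0 and 1 receptor rows passed. At an unadjusted p of 0.05, 1 to 3 were higher and 3 to 5 lower, and 4 to 6 had no overlap. Shares over all rows are not given for these unadjusted and no-overlap counts in the other settings. Leaving out an array can only keep or add separate ranges, so 4 to 6 is not comparable with the 4.54% of all rows for all arrays. Over all rows, 11 to 27 passed with 1 array left out. List genes past the threshold numbered 0 to 2 in the clock loop, 0 to 1 for thyroid hormone and 0 to 2 for glucocorticoids. The lowest count over all rows came without miR-100 overexpressing replicate 3 or 4. No called value changed direction in any of these 17 settings.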
